A study of Mus musculus with 16 samples.

Results

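Interferon response genes are the genes that a cell switches on after interferon binds its receptor, together with the receptor and the factors that carry the signal. Type I interferon binds a receptor of the chains IFNAR1 and IFNAR2, whose kinases JAK1 and TYK2 act on transcription factors. STAT2 and IRF9 are parts of the complex that binds the interferon-stimulated response element in promoters, while interferon gamma has its own receptor and acts through a different motif, the gamma-activated site. The products detect viral RNA, block viral replication, attach the ubiquitin-like protein ISG15 to other proteins, or dampen the pathway again. Endothelial cells are known to express many of these genes at a low constant level and to raise them when exposed to interferon.

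The 39 genes were taken by symbol from a list. Of these, 38 were among the 15895 genes of the deposited table, and Mx1 was not. They were 4 RNA sensors, 2 receptor chains, 4 transcription factors, 11 antiviral effectors, 10 genes of ISG15, ubiquitin and ADP-ribose transfer, 3 guanylate-binding proteins and 4 others. All 38 were described by level, and 35 could be tested: Irf7, Isg15 and Bst2 did not reach a value of 1 in at least 4 libraries.

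RNA was sequenced from cells sorted from hearts of CD1 (ICR) mice as negative for CD45 and positive for CD31 and podoplanin, the labelled lymphatic endothelial population. All animals were outbred and carried no named allele. The 4 groups were sham-operated or infarcted (MI, myocardial infarction) at postnatal day 1 (P1) or at day 56 (P56), 4 libraries each, and every heart was taken 3 days after surgery. Adult MI was a permanent ligation of the left descending coronary artery in males. Neonatal ventricles were pooled by 6, stirred with enzyme and separated on Percoll, whereas adult hearts were perfused with enzyme through the aorta. Age therefore cannot be told apart from digestion, surgery, pooling and sex. The labels do not say whether the libraries of a group came from separate animals or pools, so p-values here measure the spread between libraries, which may be technical.

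Libraries held 17103319 to 43837520 reads on the listed genes. In 3 of them (sham P1 libraries 1 and 2, MI P56 library 5) only 7746 to 9451 genes had a read, against 14121 to 15821 in the other 13. Among the 38 interferon response genes, 11, 14 and 18 had 0 reads in these 3 libraries, and 1 read there was worth a value of 0.120, 4.04 and 4.31. Results are therefore given for 13 libraries, which are 4 each of MI P1 and sham P56, 2 of sham P1 and 3 of MI P56, and values for all 16 stand beside the main counts. In sham P1 library 5, 1 of the 2 sham P1 libraries used, 47.3% of reads were on Uqcrc1, a gene of the respiratory chain, against at most 4.11% in the other 12, and in the 3 left out this share was 18.1%, 98.6% and 99.8%. All comparisons with sham P1 rest on that library in part, and their counts without it are given too. Mitochondrial rRNA took 27.7% to 51.7% of reads in these 13 libraries, which left 6709566 to 12918569 reads on genes other than it and Uqcrc1. In these 13 libraries each of the 38 genes had at least 2 reads, and 1 read was worth 0.0163 to 0.0362. Lymphatic marker genes summed to 1164 to 3480 per library, with 9 of 10 markers in the table. Prox1, Lyve1, Flt4, Mmrn1, Reln and Nrp2 were abundant in every group. The others were lower. Group means were 14.4 to 17.7 for Pdpn, the podoplanin gene, 7.99 to 22.7 for Sox18 and 2.30 to 3.47 for Foxc2. The 8 fibroblast markers had higher mean sums than the lymphatic markers in MI P56 (5781 against 1855) and sham P1 (4678 against 2800). The same held in MI P1 (3881 against 2307), but not in sham P56 (1693 against 2697).

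Response element sequences are shown first because they are the feature by which these genes are known to be driven. The 250 bases before the start site were searched on both strands for GAAA, any 2 bases, then GAAA, the core of the response element. A promoter was found for 33 of the 38 genes (RefSeq, GRCm38.p6), and 11 of the 33 (33.3%) held a match, against 3.12% of the tested genes with a promoter and 2.98% of all promoters of that length. The gamma-activated site, TTCNNNGAA, matched in 7 of 33 (21.2%), against 7.31% of the tested genes. The 33 include genes that were not tested, and of these Bst2 and Isg15 held a response element. Among tested interferon response genes with a promoter, 9 held a response element and 21 did not. The 6 genes below were taken, among those with a response element, by mean value not divided by length, which is no ranking of their levels. Each line runs along the gene's own strand, with the match in capitals and 30 bases on either side where the window allowed, and TTTC, 2 bases, TTTC is the element read from the other strand.
Stat2, chr10:128270248-128270315, + strand: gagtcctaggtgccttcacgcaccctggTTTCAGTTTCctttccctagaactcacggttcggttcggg
Gbp7, chr3:142530253-142530322, + strand: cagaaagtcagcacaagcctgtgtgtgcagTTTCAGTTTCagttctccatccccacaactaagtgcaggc
Ddx60, chr8:61928004-61928086, + strand: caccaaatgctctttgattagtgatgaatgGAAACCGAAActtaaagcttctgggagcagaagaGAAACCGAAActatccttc
Gbp2, chr3:142620574-142620643, + strand: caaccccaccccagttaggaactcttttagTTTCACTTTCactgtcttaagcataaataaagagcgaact
Ifit1, chr19:34640755-34640843, + strand: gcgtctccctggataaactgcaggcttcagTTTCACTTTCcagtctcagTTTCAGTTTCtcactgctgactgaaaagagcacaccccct
Trim30a, chr7:104465194-104465259, - strand: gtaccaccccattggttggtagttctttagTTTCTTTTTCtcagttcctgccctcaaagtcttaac
Ddx60 and Ifit1 hold 2 elements each, and the others shown hold 1. The other promoters with a match were those of Ifit3, Rsad2, Bst2, Isg15 and Gbp3. Dhx58, Oas2, Usp18, Parp9 and Parp14 had no promoter in the sequence table.

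Levels differed widely among the genes. Values below are CPM, read counts scaled for library size, with the TMM factor that corrects for composition, as deposited, and comparisons between genes use the value per kilobase of exon. In sham P56 the highest were Trim25, a ubiquitin ligase that activates the sensor RIG-I, at 8.76 per kb, and Oasl2, a relative of the 2-5A synthetases, at 7.87 per kb. Irf7, the factor that amplifies type I interferon production, was lowest at 0.245 per kb. In sham P1 the order was different: Trim25 (4.77 per kb), Ifnar1 (4.39) and Ifnar2 (4.04) led, and Oas2, a 2-5A synthetase, was lowest at 0.0400 per kb. The summed value of the 38 genes was 238 and 270.3 in sham P1, 283 to 334 in MI P1, 563 to 691 in sham P56 and 396 to 459 in MI P56. Among the 13 libraries these ranges do not overlap between any 2 of the groups, with sham P1 lowest and sham P56 highest. The 3 libraries left out are not in these ranges. They held 2425 and 85 (sham P1 libraries 1 and 2) and 54 (MI P56 library 5) reads on the 38 genes, so whether the ranges stay apart with them is not shown.

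**Figure D1:**
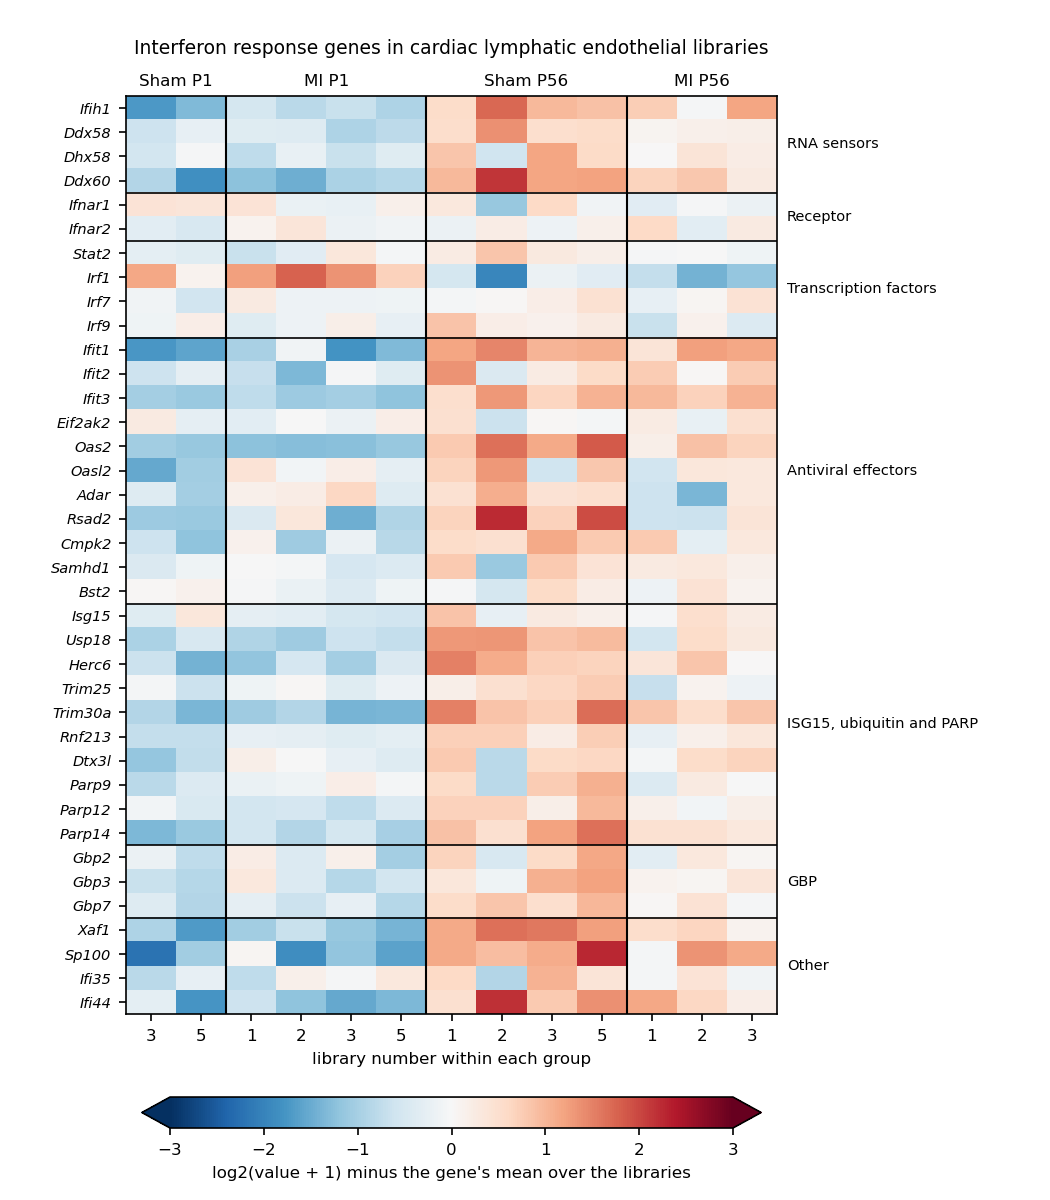
Each row is 1 of the 38 interferon response genes, ordered by role, and each column 1 of the 13 libraries, and the color is log2(value + 1) minus that gene's mean over the libraries. Most rows are low in both P1 groups and high in sham P56, with summed values of 563 to 691 there against 238 and 270.3 in sham P1, whereas Irf1 is high at P1 and the receptor genes show little pattern.

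Age in sham hearts gave the highest count of calls. A gene was called with an adjusted p under 0.05 over the 13033 genes tested by limma on log2(value + 1), a scale that understates the change of low genes, and changes below are on that log2 scale. Of the 35 genes tested, 20 rose from P1 to P56 and 0 fell by limma, where 5.89% of all genes tested rose and 7.28% fell. The median log2 change was 1.33, against 0.00 over all genes. In 24 of the 35 every P56 library lay above every P1 library (16.3% of all genes). In 1, Irf1, every P56 library lay below, where 16.7% of all genes did so. The risers were 3 of 4 sensors, 6 of 10 tested effectors, 6 of 9 tested ubiquitin and ADP-ribose genes, 2 of 3 guanylate-binding proteins and 3 of 4 others, and none of the receptor chains or the 3 tested transcription factors was called.

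With all 16 libraries 9 of 36 tested genes rose, where 2.52% of all genes rose, and edgeR on the recovered reads of all 16 called 12 higher, where 2.75% of genes were. All 9 and all 12 are among the 20. The median was then 1.33 by limma, against 0.36 over all genes. Without sham P1 library 5, 14 of 35 rose, where 1.94% of all genes did, and Cmpk2, Gbp3, Gbp7, Ifi44, Rsad2 and Trim25 were lost, with the remaining sham P1 library assumed to vary like the other groups. In the added sham P1 libraries the values were uneven: Usp18, the protease that removes ISG15, stood at 31.9 in library 1 against 0.127 and 0.543 in the 2 used, and Ifit1 was at 0.120 in library 1 and 12.1 in library 2.

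The sensors Ifih1 (MDA5) and Ddx60 rose most within their class. Ifih1 (chromosome 2, 62595798 to 62646255, - strand) had values of 1.18 and 1.88 in sham P1, 3.97, 3.11, 3.51 and 2.78 in MI P1, 9.50, 22.9, 13.2 and 12.3 in sham P56 and 11, 6.02 and 15.2 in MI P56. Both P1 groups lay below every P56 library, and the log2 change in sham was 2.56 ± 0.39 (SE; limma adjusted p = 0.000184). Ddx60 (chromosome 8, 61928087 to 62038244, + strand), a helicase that assists the sensors, had values of 2.93 and 1.01 in sham P1, 2.09, 1.63, 2.79 and 3.00 in MI P1, 13.2, 30.9, 15.4 and 15.9 in sham P56 and 10.5, 11.7 and 7.75 in MI P56. All P56 libraries again lay above all P1 libraries, with a log2 change in sham of 2.74 ± 0.38 (SE; limma adjusted p = 9.58e-05). Ddx58 (RIG-I) had values of 9.81 and 13 in sham P1, 12, 11.8, 7.83 and 8.68 in MI P1, 23.3, 42.6, 22.7 and 23.4 in sham P56 and 16.6, 17.5 and 17.8 in MI P56. It rose by 1.18 ± 0.30 (SE; limma adjusted p = 0.0110), and library 2 of sham P56 stood well above the other 3. Dhx58 (LGP2), a regulator of the other sensors, was low throughout, with means of 0.525 ± 0.385 in sham P1 and 1.83 ± 1.23 in sham P56 (SD, n = 2 and 4), and was not called (limma adjusted p = 0.233).

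The receptor chains did not follow the sensors. Ifnar1 (chromosome 16, 91485238 to 91507441, + strand) had values of 26.7 and 25.5 in sham P1, 26.5, 17, 16.8 and 21.9 in MI P1, 24.9, 8.43, 30.4 and 18.2 in sham P56 and 15.3, 19.2 and 17.2 in MI P56. The groups overlapped and the log2 change with age in sham was -0.47 ± 0.36 (SE; limma adjusted p = 0.441). Ifnar2 (chromosome 16, 91372783 to 91405589, + strand) had values of 14.3 and 12.6 in sham P1, 19.5, 23.4, 16 and 16.7 in MI P1, 15.7, 21.2, 16.2 and 20.1 in sham P56 and 27.9, 14.3 and 22 in MI P56. Its sham P56 libraries lay just above the sham P1 libraries, with a log2 change of 0.41 ± 0.28 (SE; limma adjusted p = 0.385).

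Among the transcription factors only Irf1 passed the limma test in an age comparison, in the other direction and among infarcted hearts. Irf1 (chromosome 11, 53770014 to 53778374, + strand), induced by interferon gamma and inflammatory signals, had values of 15.5 and 6.85 in sham P1, 16.4, 23.9, 17.8 and 10.8 in MI P1, 4.10, 0.880, 5.44 and 4.76 in sham P56 and 3.45, 1.77 and 2.30 in MI P56. In sham the change with age was -1.39 ± 0.47 (SE; limma adjusted p = 0.0553), and all sham P56 libraries lay below both sham P1 libraries. It was called lower in sham by DESeq2, and by limma with a minimum of 5, median-of-ratios or quantile scaling, weights per library or without sham P56 library 3, whereas with all 16 libraries its change was -0.10. Stat2 had values of 17 and 16.2 in sham P1, 12.7, 16.4, 26.7 and 20.0 in MI P1, 25.2, 38.2, 26.1 and 24 in sham P56 and 20.3, 20.8 and 19.1 in MI P56. Its sham P56 libraries lay above both sham P1 libraries, and the change with age was 0.71 ± 0.28 (SE; limma adjusted p = 0.108). Irf9 was at 7.83 and 10.00 in sham P1, 6.43, 7.60, 9.95 and 7.09 in MI P1, 16.5, 9.96, 9.55 and 10.7 in sham P56 and 5.09, 9.49 and 6.24 in MI P56, and the groups overlapped (log2 change in sham 0.33, limma adjusted p = 0.558). Irf7 was low in every library, at 0.591 and 0.145 in sham P1, 1.05, 0.549, 0.548 and 0.582 in MI P1, 0.650, 0.750, 0.959 and 1.34 in sham P56 and 0.451, 0.798 and 1.30 in MI P56, and was not tested.

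Among the effectors Ifit1 had the largest change with age in sham. Ifit1 (chromosome 19, 34640871 to 34650009, + strand), which binds viral RNA caps, had values of 0.612 and 0.797 in sham P1, 1.77, 4.02, 0.573 and 1.16 in MI P1, 11.3, 13.9, 9.91 and 10.3 in sham P56 and 6.11, 11.8 and 11 in MI P56. Sham P56 was 16.1 times sham P1 by the means, with no overlap, and the change with age was 2.85 ± 0.42 (SE; limma adjusted p = 0.000156). With all 16 libraries Ifit1 missed the threshold (2.27, limma adjusted p = 0.0525) but passed in edgeR (adjusted p = 0.0292). Ifit3, of the same family, had values of 0.211 and 0.145 in sham P1, 0.457, 0.154, 0.224 and 0.0727 in MI P1, 2.49, 5.10, 2.89 and 4.10 in sham P56 and 3.86, 3.02 and 4.14 in MI P56, and the change with age was 1.94 ± 0.35 (SE; limma adjusted p = 0.000820). Reads of Ifit3 can be split with its near-identical copy Ifit3b, so its level is uncertain. Ifit2 was at 2.17 and 3.01 in sham P1, 2.02, 0.909, 3.76 and 2.78 in MI P1, 11.5, 2.61, 4.72 and 6.26 in sham P56 and 7.29, 4.01 and 7.26 in MI P56 and was not called (limma adjusted p = 0.240).

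Rsad2 (chromosome 12, 26442753 to 26456452, - strand) encodes viperin, a radical enzyme that makes a chain-ending nucleotide. Its values were 0.401 and 0.362 in sham P1, 1.18, 2.75, 0.0748 and 0.582 in MI P1, 3.70, 12.9, 3.74 and 10.5 in sham P56 and 0.921, 0.906 and 2.88 in MI P56. Libraries 2 and 5 of sham P56 were well above libraries 1 and 3, and all 4 were above both sham P1 libraries (log2 change 2.49 ± 0.53 (SE; limma adjusted p = 0.00351)). Cmpk2, the nucleotide kinase that starts 12.8 kb from Rsad2 in the opposite direction, went from 0.659 ± 0.470 to 4.17 ± 1.13 (SD, n = 2 and 4), a log2 change of 1.64 ± 0.43 (SE; limma adjusted p = 0.0135). Oas2 had values of 0.211 and 0.145 in sham P1, 0.0703, 0.0343, 0.0498 and 0.145 in MI P1, 3.32, 6.88, 4.49 and 7.98 in sham P56 and 1.82, 3.64 and 2.98 in MI P56. In the P1 libraries these stand for few reads, 2 at the lowest, so no fold is given, and the change with age was 2.44 ± 0.37 (SE; limma adjusted p = 0.000187).

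Oasl2 was abundant at both ages, with values of 9.91 and 14.4 in sham P1, 41.3, 28.9, 35.3 and 25.2 in MI P1, 48.9, 77.3, 19.8 and 54.5 in sham P56 and 20.3, 39.2 and 38.5 in MI P56. Sham P1 was lower than every other library of the 13 (log2 change with age in sham 1.83 ± 0.40 (SE; limma adjusted p = 0.00409)). Adar, the RNA-editing enzyme that limits sensing of the cell's own RNA, was at 1.67 and 0.725 in sham P1, 2.90, 3.11, 4.44 and 1.67 in MI P1, 3.83, 6.49, 3.71 and 3.98 in sham P56 and 1.27, 0.345 and 3.37 in MI P56. All sham P56 libraries lay above sham P1, but the change of 1.33 ± 0.45 (SE) missed the threshold (limma adjusted p = 0.0584). Eif2ak2 (PKR), which halts translation, showed no such difference, at 21.9 and 14.6 in sham P1, 14.2, 17.7, 15.7 and 20.6 in MI P1, 25.5, 11.1, 18.4 and 17 in sham P56 and 21.4, 15.1 and 25.2 in MI P56 (log2 change -0.05, limma adjusted p = 0.950). Samhd1, which depletes nucleotides, went from 17.2 ± 2.86 to 27.7 ± 13 (SD, n = 2 and 4; limma adjusted p = 0.462). Bst2 (tetherin), which holds virus particles on the cell, was low throughout, at 0.844 and 0.942 in sham P1, 0.755, 0.566, 0.349 and 0.637 in MI P1, 0.740, 0.233, 1.68 and 1.07 in sham P56 and 0.607, 1.40 and 0.912 in MI P56.

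**Figure D2:**
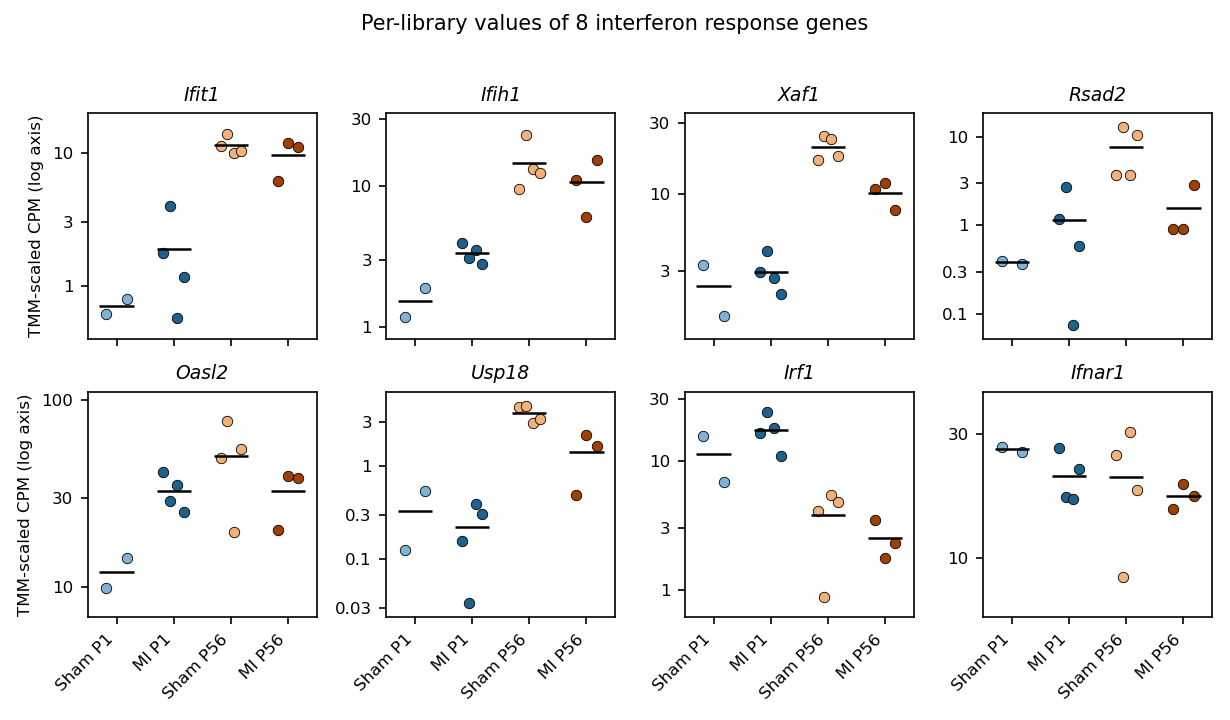
Points are the values of single libraries for 8 genes on a log axis, by group, and the black bars are group means. Ifit1, Ifih1, Xaf1, Rsad2 and Usp18 have all 4 sham P56 libraries above both sham P1 libraries, Irf1 has them below, and the groups of Ifnar1 overlap.

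Genes of ISG15, ubiquitin and ADP-ribose transfer rose for the most part, though ISG15 itself was scarce. Isg15 was at 0.295 and 1.09 in sham P1, 0.369, 0.326, 0.150 and 0.109 in MI P1, 2.02, 0.388, 0.995 and 0.834 in sham P56 and 0.627, 1.34 and 0.961 in MI P56, and was not tested. MI P1 lay below both P56 groups, and sham P1 overlapped all the others. Usp18 (chromosome 6, 121245906 to 121270917, + strand) was at 0.127 and 0.543 in sham P1, 0.158, 0.0343, 0.399 and 0.309 in MI P1, 4.33, 4.45, 2.93 and 3.22 in sham P56 and 0.490, 2.18 and 1.66 in MI P56. It rose by 1.83 ± 0.36 in sham (SE; limma adjusted p = 0.00191) without overlap. Trim30a, a ubiquitin ligase that restrains inflammatory signalling, was at 1.39 and 0.688 in sham P1, 1.09, 1.36, 0.673 and 0.691 in MI P1, 11.5, 6.91, 6.11 and 12.9 in sham P56 and 6.78, 5.30 and 6.77 in MI P56. The change with age was 2.31 ± 0.38 (SE; limma adjusted p = 0.000424). Trim25 had values of 33.2 and 21.7 in sham P1, 31.8, 35.7, 26.6 and 31.2 in MI P1, 39.4, 48.7, 54.2 and 59.3 in sham P56 and 21.2, 37.5 and 31.3 in MI P56, and its change of 0.87 ± 0.27 (SE) was the smallest of the 20 called (limma adjusted p = 0.0375).

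Parp14, an ADP-ribosyltransferase, went from 6.29 ± 0.840 to 36.1 ± 12.9 (SD, n = 2 and 4), a log2 change of 2.29 ± 0.30 (SE; limma adjusted p = 5.24e-05). The ISG15 ligase Herc6 went from 5.76 ± 2.51 to 26.3 ± 7.80 (2.02, limma adjusted p = 0.000585), and the giant ligase Rnf213 from 25.9 ± 0.0520 to 66.6 ± 10.7 (1.32, adjusted p = 0.000779). Dtx3l, a ubiquitin ligase, and its partner Parp9 were not called. Dtx3l was at 1.48 and 2.32 in sham P1, 5.20, 4.48, 3.69 and 3.24 in MI P1, 8.56, 2.17, 7.16 and 7.55 in sham P56 and 4.33, 7.05 and 7.74 in MI P56, and Parp9 went from 2.44 ± 0.647 to 6.62 ± 3.36. In both, library 2 of sham P56 lay apart on the low side, and their exons overlap by 367 bases on opposite strands, so reads there cannot be told apart. Parp12 was at 7.91 and 5.80 in sham P1, 5.37, 5.58, 4.54 and 6.11 in MI P1, 14.1, 14, 9.64 and 17.3 in sham P56 and 9.44, 7.80 and 9.66 in MI P56, without overlap in sham, and just missed the threshold (0.90, limma adjusted p = 0.0556).

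Of the guanylate-binding proteins, large GTPases that attack pathogen vacuoles, Gbp7 went from 12.6 ± 3.22 to 33.6 ± 5.59 (log2 change 1.35 ± 0.27 (SE; limma adjusted p = 0.00230)) and Gbp3 from 1.54 ± 0.235 to 6.08 ± 2.85 (1.38, adjusted p = 0.0371). Gbp2, between 4.79 ± 1.64 and 10.8 ± 4.86, was not called (limma adjusted p = 0.167). The 3 genes lie in one cluster on chromosome 3.

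Among the others, Xaf1 (chromosome 11, 72301629 to 72313733, + strand), which favors cell death, had values of 3.27 and 1.49 in sham P1, 2.95, 4.08, 2.67 and 2.09 in MI P1, 16.8, 24.5, 23.3 and 18.1 in sham P56 and 10.8, 11.8 and 7.72 in MI P56. All P56 libraries lay above all P1 libraries, sham P56 was 8.70 times sham P1, and the change with age was 2.72 ± 0.34 (SE; limma adjusted p = 3.06e-05). Sp100, a component of nuclear bodies, was at 0.907 and 3.30 in sham P1, 8.15, 1.41, 2.89 and 1.89 in MI P1, 18.4, 15.8, 18 and 41.4 in sham P56 and 7.46, 21.3 and 18.3 in MI P56. It had the largest log2 change of the 35, 2.98 ± 0.53 (SE; limma adjusted p = 0.000776), and 0.0842 was its adjusted p with all 16 libraries. Ifi44, an interferon-induced cytoplasmic protein, was at 7.40 and 2.06 in sham P1, 5.71, 3.50, 2.59 and 3.07 in MI P1, 13.4, 46.3, 16.9 and 25.7 in sham P56 and 22.1, 15 and 10.8 in MI P56 (2.23, limma adjusted p = 0.00272). Ifi35, a partner of the STAT-interacting protein NMI, was not called, with means of 0.801 ± 0.506 and 2.45 ± 1.58.

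Markers of other cells moved with age in these libraries as well. The 8 cardiomyocyte markers, Ttn, Myh6 and Ryr2 among them, summed to 147 and 223 in the sham P1 libraries and 1269 to 2305 in sham P56, and 8 of 8 rose. The 10 blood endothelial markers, such as Cd36, Aqp1 and Fabp4, summed to 173 and 215 against 587 to 967, and 6 of 10 rose. Macrophage and monocyte markers summed to 18.6 and 18.9 against 7.63 to 9.82, with 9 of 12 in the table and Fcgr1, Ly6c2 and C1qa not in it. Of the 6 tested, 1 fell, Cd68, from a mean of 12.8 to 0.766, and 0 rose. The uncalled log2 changes were positive for Ptprc (0.56), Csf1r (0.73), Lyz2 (0.64) and Ccr2 (0.08) and negative for Itgam (-0.83). Fibroblast markers summed to 3042 and 6314 against 725 to 3157, and 4 of 8 fell. The plasmacytoid dendritic cell marker Siglech was not in the table, nor was any of 6 neutrophil markers. The part of these cells in the change of the interferon response genes was not tested, and fewer cells of a type cannot be told apart from less RNA per cell.

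The same age comparison among infarcted hearts shares no library with that in sham, although both use the spread estimated over all 13. It gave 11 genes higher and 1 lower of 35 by limma, where 2.09% of all genes tested rose and 3.26% fell, and the median log2 change was 0.64, against 0.01 over all genes. In 18 of the 35 every P56 library lay above every P1 library (9.44% of all genes), and in 1, Irf1, below (11.2%). All 11 were among the 20 that rose in sham, so 11 of 20 and 11 of 11 are shared. They were Ifih1, Ddx60, Ifit1, Ifit3, Oas2, Herc6, Trim30a, Parp14, Xaf1, Sp100 and Ifi44. With all 16 libraries 0 of 36 were called by limma, where 0.0529% of all genes rose, and edgeR called 1, Oas2, where 0.0692% were. With all 16, 1 of the 4 MI P56 libraries had 18 of the 38 genes at 0 reads.

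Ifit1 rose by 1.97 ± 0.37 after MI (SE; limma adjusted p = 0.00330), and MI P56 was 5.12 times MI P1 by the means. Ifit3 rose by 1.93 ± 0.30 (adjusted p = 0.000667) and Oas2 by 1.80 ± 0.33 (adjusted p = 0.00247), against 1.94 and 2.44 in sham. These 3 showed no overlap between MI P1 and MI P56. Sp100 rose by 1.96 ± 0.46 (limma adjusted p = 0.0163), although MI P1 library 1, at 8.15, overlapped MI P56, and edgeR did not call it. Trim30a rose by 1.91 ± 0.34 (adjusted p = 0.00190) and Ifi44 by 1.84 ± 0.41 (adjusted p = 0.0111), both without overlap.

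Irf1 fell by 2.36 ± 0.41 on the log2 scale, from 17.2 ± 5.39 (SD, n = 4) to 2.50 ± 0.859 (SD, n = 3) (limma adjusted p = 0.00177), the reverse of the other called genes. The 9 genes called in sham and not after MI were Ddx58, Rsad2, Cmpk2, Oasl2, Usp18, Trim25, Rnf213, Gbp3 and Gbp7. Rsad2 stood at 0.33, Oasl2 at -0.03 and Usp18 at 0.94 after MI. A call in one setting and not in the other does not show a difference, and the test of that difference, given below, called none of the 35.

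**Figure D3:**
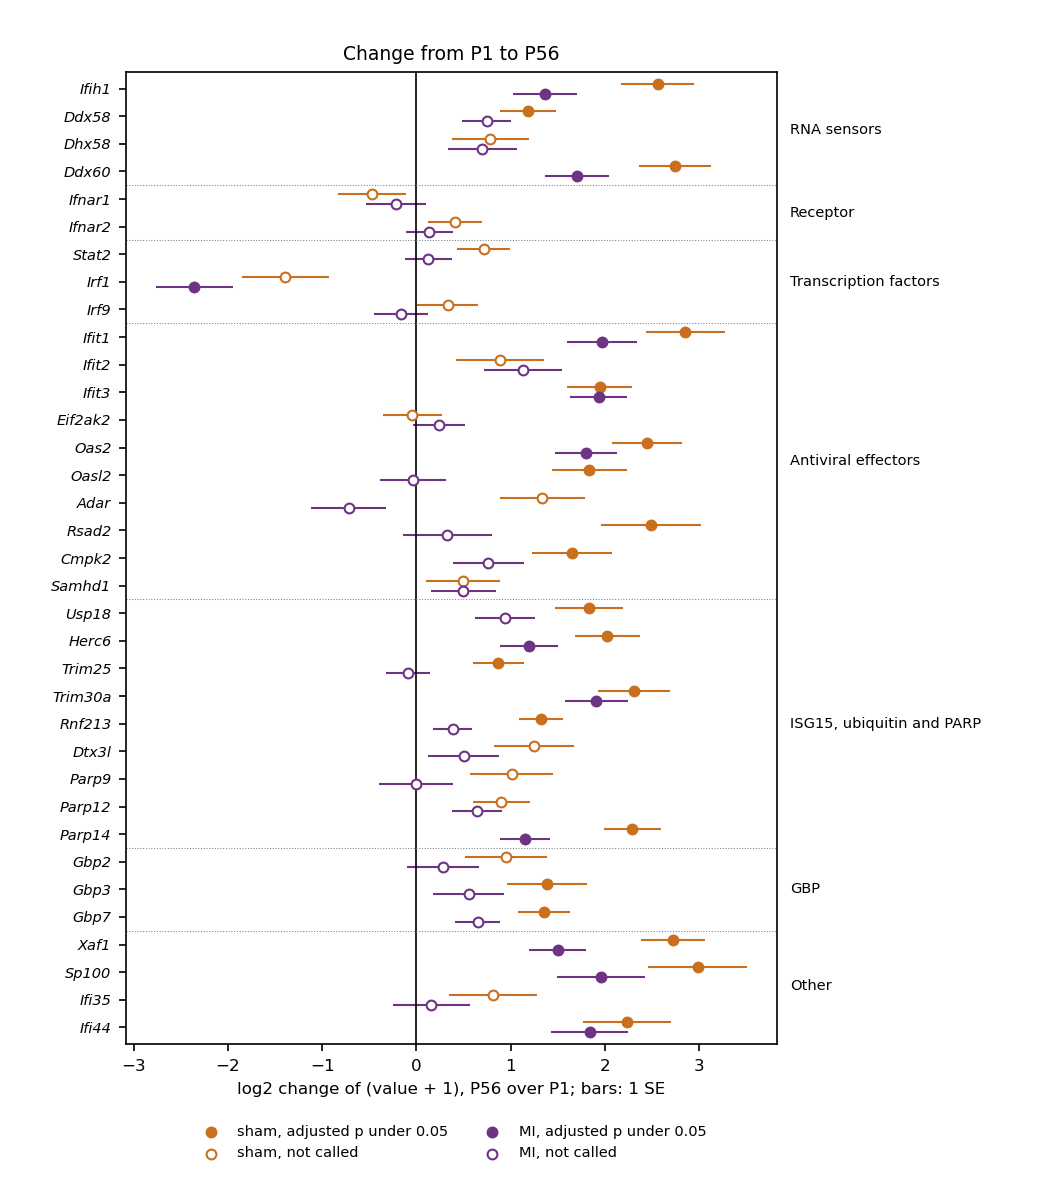
Log2 change of (value + 1) from P1 to P56 for the 35 tested genes by role, in sham (orange) and in MI hearts (purple), with bars of 1 SE and filled points for limma adjusted p under 0.05. Of the filled points, 20 in sham and 11 after MI lie to the right of 0, and Irf1 after MI lies to the left.

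Marker sums differed with age after MI as well. Cardiomyocyte markers summed to 100.0 to 339 in MI P1 and 320.4 to 565 in MI P56, with 1 of 8 called higher, and blood endothelial markers to 261 to 369 and 220.1 to 459, with 0 of 10 called by limma. Macrophage and monocyte markers summed to 9.07 to 31.5 in MI P1 and 19.0 to 94.2 in MI P56, with 2 of 6 tested markers called higher, and fibroblast markers to 1804 to 5366 and 3594 to 7775, with 0 of 8 called by limma. Cd3e, the only one of 9 T and NK cell markers in the table, averaged 9.31 in MI P1 and 0.436 in MI P56.

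Infarction at P56 went with lower values, none past the threshold. By limma 0 of 35 genes were called, where 3.42% of all genes were. The median log2 change was -0.47, against 0.01 over all genes, 29 of 35 were negative, and 12 had an unadjusted p under 0.05 (17.1% of all genes did). In 11 of the 35 every MI library lay below every sham library, where 5.79% of all genes did so. In 0 did every MI library lie above, where 8.00% of all genes did so. edgeR called 0 of 38, where 2.03% of all genes were called, and DESeq2 called 2, Rsad2 and Xaf1, where 5.99% were. Both were lower, where DESeq2 called 2.31% of all genes lower, and 2 genes are too few to compare with that share. The fit of all 16 libraries called 0 of 36, where 0.174% of genes were, and the median was -0.69, against -0.17 over all genes. This comparison and that of age in sham share the 4 sham P56 libraries, so their changes are not independent.

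Rsad2 had the largest change, -1.68 ± 0.47 (SE; limma adjusted p = 0.0544), and its mean in sham was 4.92 times that in MI. The MI P56 libraries, at 0.921, 0.906 and 2.88, all lay below the lowest sham P56 library. It passed when library 1 or 3 of sham P56 or library 2 of MI P1 was left out, and with weights per library, quantile normalization or a pseudocount of 4. Parp14 (-0.64) passed without library 2 of sham P56. Xaf1 changed by -0.97 ± 0.30 (SE; limma adjusted p = 0.0788), with 10.8, 11.8 and 7.72 in MI against 16.8, 24.5, 23.3 and 18.1 in sham. Trim25 changed by -0.75 ± 0.24 (SE; adjusted p = 0.0871), with 21.2, 37.5 and 31.3 in MI against 39.4, 48.7, 54.2 and 59.3 in sham. Both kept the groups apart.

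Usp18 was at 0.490, 2.18 and 1.66 in MI against 4.33, 4.45, 2.93 and 3.22 in sham (-1.01, limma adjusted p = 0.0880), and Adar changed by -1.19 (adjusted p = 0.114). The other genes with every MI library below every sham library were Ddx58, Ddx60, Stat2, Irf9, Parp14 and Gbp7, with log2 changes of -0.79 to -0.46. All 4 sensors, all 3 tested transcription factors, all 3 guanylate-binding proteins and the 4 others had a negative estimate. The positive estimates with the smallest p were those of Eif2ak2 (0.21 ± 0.28, SE), Ifnar2 (0.18 ± 0.25) and Dtx3l (0.09 ± 0.38), with limma adjusted p of 0.757, 0.774 and 0.937. Ifit1 (-0.25) and Ifit3 (0.04), among the largest risers with age, differed little between MI and sham at P56 against an SE of 0.37 and 0.30.

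Other transcripts moved the same way at P56. Cardiomyocyte markers summed to 320.4 to 565 in MI against 1269 to 2305 in sham, with 8 of 8 lower, and blood endothelial markers to 220.1 to 459 against 587 to 967, with 4 of 10 lower. Macrophage and monocyte markers rose, with 3 of 6 tested called and sums of 19.0 to 94.2 against 7.63 to 9.82, and so did 4 of 8 fibroblast markers. Lymphatic markers summed to 1164 to 2619 in MI against 2040 to 3480 in sham. Each of their log2 changes was negative, from -1.04 (Sox18) to -0.15 (Foxc2), with -0.46 for Prox1, and 0 of 9 were called by limma. The part of all these transcripts in the lower interferon response values was not tested.

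Infarction at P1 left all 35 genes uncalled by limma, edgeR and DESeq2, where 0.0%, 0.0% and 0.0377% of all genes were called. At an unadjusted p under 0.05 there was 1 gene, Oasl2, and the median log2 change was 0.24, against 0.02 over all genes. The median was 0.09 without sham P1 library 5 and 0.38 without library 3, with 0 called in both. In the fit of all 16 libraries limma called 0 of 36, where 0.0% of genes were called, and the median was 0.41, close to the 0.39 over all genes. In 8 of 35 every MI library lay above both sham libraries (8.89% of all genes) and in 0 below (7.27%).

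Oasl2 changed by 1.35 ± 0.40 (SE; limma adjusted p = 0.919), with 41.3, 28.9, 35.3 and 25.2 in MI against 9.91 and 14.4 in sham. Ifih1 (0.78 ± 0.39, SE) and Dtx3l (0.83 ± 0.43) followed, also without overlap, both with a limma adjusted p of 1.00. The lowest estimates by p were Ifnar1 (-0.35 ± 0.36, SE), Parp12 (-0.29 ± 0.30) and Ddx58 (-0.17 ± 0.30), which overlapped. The first 2 changed sign with all 16 libraries, to 0.71 and 0.50, and Ddx58 without sham P1 library 5, to 0.0151.

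**Figure D4:**
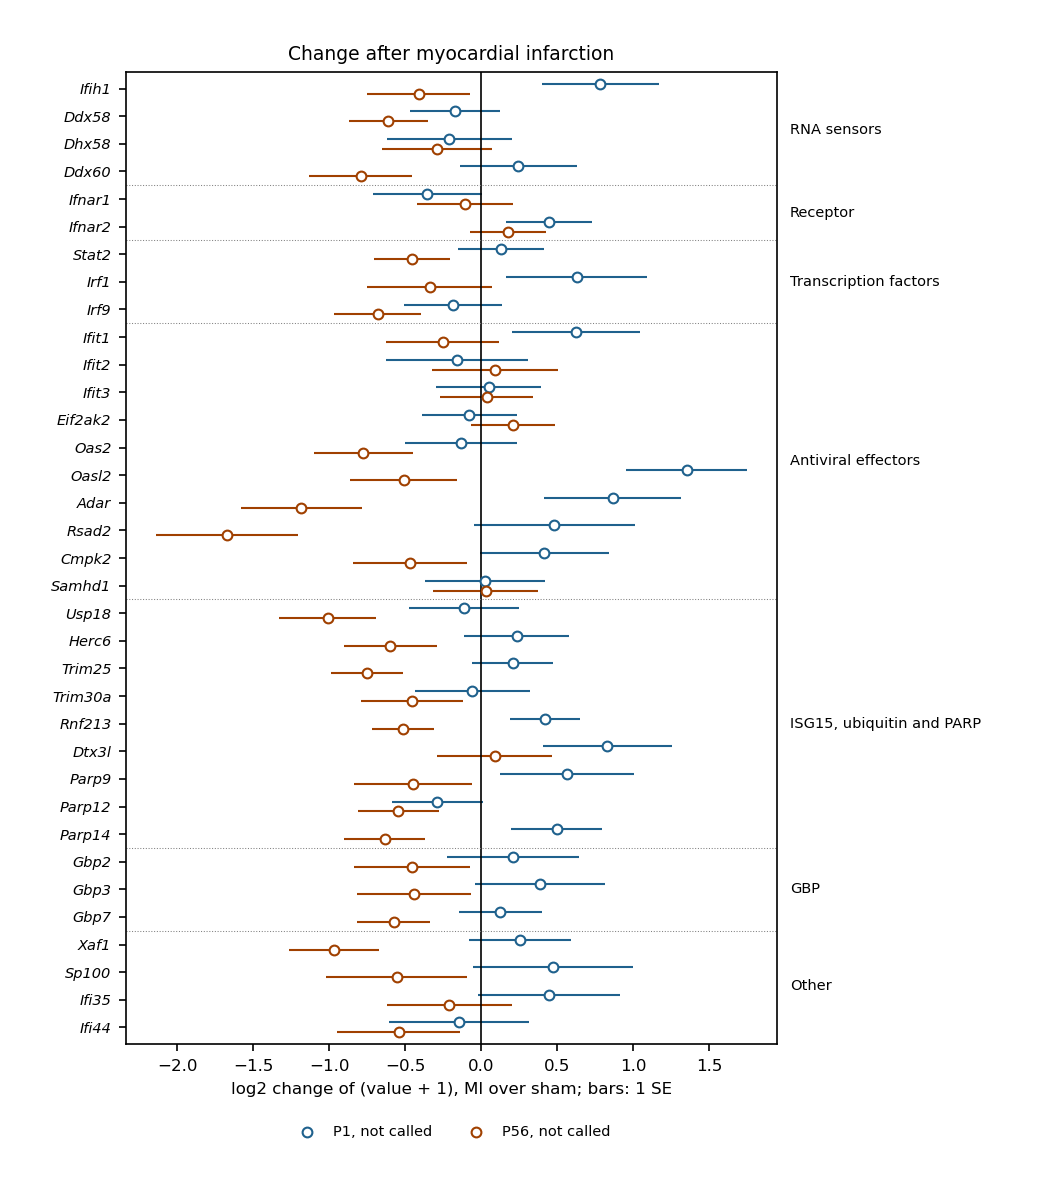
Log2 change of (value + 1) from sham to MI for the 35 tested genes by role, at P1 (blue) and at P56 (brown), with bars of 1 SE, and open points for genes not called. No gene is called at either age, 29 of 35 points at P56 lie left of 0, and 24 of 35 at P1 lie right of it.

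The response to MI at P56 minus that at P1 was tested as an interaction. By limma 0 of 35 genes were called, where 0.483% of all genes were, with 8 at an unadjusted p under 0.05 (10.9% of all genes), and the median was -0.74, against -0.01 over all genes. edgeR called 0 of 38, where 0.12% of all genes were called, and DESeq2 called 1, Oasl2, where 2.14% were. Its value was negative, where DESeq2 called 0.925% of all genes with a negative value, and 1 gene is too few to compare with that share. With all 16 libraries limma called 0 of 36, where 0.00755% of genes were, with a median of -1.10 against -0.50 over all genes, and without sham P1 library 5 the median was -0.60, with 0 of 35 called. The smallest p among negative values were those of Oasl2 (-1.87 ± 0.53, SE; limma adjusted p = 0.136), Adar (-2.05 ± 0.60; 0.150) and Rsad2 (-2.16 ± 0.71; 0.198). Oasl2 ran from 19.8 to 77.3 in sham P56, and it was called without sham P56 library 3, the library at 19.8. Positive values were small: 0.28 ± 0.42 for Eif2ak2, 0.25 ± 0.48 for Ifnar1 and 0.25 ± 0.62 for Ifit2 (SE), with limma adjusted p of 0.872, 0.911 and 0.931, and all 3 turned negative with all 16 libraries.

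Library 2 of sham P56 stood apart within its group. It was the highest of its group for 13 of 35 genes and the lowest for 14, where it was the highest for 36.5% and the lowest for 41.8% of all genes, and it had a read on 14121 genes, the fewest of the 13. Ddx58, Ddx60, Stat2 and Ifi44 were highest there, and Samhd1, Ifnar1, Irf1, Dtx3l and Parp9 lowest. Without it 27 of 35 genes rose with age in sham, where 8.21% of all genes did, against 5.89% with it. The 7 gained were Dhx58, Dtx3l, Gbp2, Ifi35, Parp12, Parp9 and Samhd1, and none of the 20 was lost.

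Promoters with and without the element were compared as a description. Of the 9 tested genes with a response element 7 rose with age in sham (median log2 change 1.94), as did 10 of 21 without a match (median 1.18) and 3 of the 5 with no sequence (median 1.83). After MI the counts were 4 of 9, 5 of 21 and 2 of 5. Stat2 and Gbp2 hold an element, printed above, and were not called, whereas Xaf1 and Sp100 were called and have no match in these 250 bases.

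Genes around the core list were read from 123 further pathway genes, 91 of them in the table and 84 tested. With age in sham 25 rose and 4 fell by limma, where 5.89% of all genes rose and 7.28% fell, and after MI 10 rose and 3 fell, where 2.09% and 3.26% did. None of the 13 interferon ligand genes, Ifnb1 and Ifng among them, was in the table. Of 8 receptor and kinase genes tested in sham, Ifngr1, a chain of the interferon gamma receptor, rose by 1.53 ± 0.37 (SE; limma adjusted p = 0.00864), from 7.21 ± 1.18 to 23.9 ± 9.27. Stat3, the mediator of interleukin 6 signals, fell by 1.05 ± 0.31 (adjusted p = 0.0317). Jak1 (-0.69) and Tyk2 (0.43) were not called (limma adjusted p = 0.0608 and 0.499).

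Of 13 genes that induce interferon, 2 rose with age in sham, the adaptor Mavs (1.43 ± 0.34, SE; limma adjusted p = 0.00708) and the RNA receptor Tlr3 (1.31 ± 0.33; 0.0128). Irf3, their target factor, reached 1.00 (adjusted p = 0.0557). Of 58 further interferon-stimulated genes 22 rose in sham and 1, Slfn9, fell. The largest rises were Gbp4 (3.15 ± 0.52), Ifi205 (2.86 ± 0.75), Irgm2 (2.63 ± 0.43), Ifi27 (2.52 ± 0.34) and Gbp5 (2.36 ± 0.45), with limma adjusted p of 0.0149 at most. Ifi205 has close relatives in its family, so its reads are uncertain, and it was uneven, at 0.852, 40.9, 7.13 and 4.71 in sham P56 against 0 and 0.145 in sham P1. The chemokine Cxcl10, a classical target of interferon gamma, was not called (-0.99, adjusted p = 0.280).

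After MI, 10 of the same 58 rose with age and 0 fell. Ifi205 rose by 2.49 ± 0.66 (SE), Ifi204 by 2.42 ± 0.38, Ifi27 by 2.03 ± 0.30, Gbp4 by 1.71 ± 0.46 and Zbp1, a sensor of nucleic acids that can trigger cell death, by 1.52 ± 0.41, with limma adjusted p of 0.0341 at most. Irf8 fell by 1.45 ± 0.33 (limma adjusted p = 0.0130).

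Of 5 tested brakes of the pathway, 2 fell with age in sham and 2 fell with age after MI. Socs3, which blocks JAK kinases at cytokine receptors, was at 31 and 31 in sham P1, 29.3, 38.5, 57 and 16.1 in MI P1, 1.28, 0.155, 1.54 and 1.26 in sham P56 and 8.07, 9.75 and 3.37 in MI P56. It fell by 4.02 ± 0.45 with age in sham (SE; limma adjusted p = 1.26e-05) and by 2.13 ± 0.40 after MI (adjusted p = 0.00309), and it rose with MI at P56 (1.93 ± 0.40, adjusted p = 0.00862). Rnaseh2a, a subunit of the nuclease that clears RNA-DNA hybrids, fell by 2.19 ± 0.40 in sham (adjusted p = 0.00107), and Tnfaip3 (A20), an inhibitor of NF-kappaB, fell by 1.87 ± 0.34 after MI (adjusted p = 0.00260). Slfn9, of the Schlafen family, was the other pathway gene called with MI at P56, where it rose by 1.81 ± 0.34 (SE; limma adjusted p = 0.00437). With age in sham it fell by 2.64 ± 0.39 (adjusted p = 0.000145). With MI at P56, 2 of the 84 were thus higher (2.38%) and 0 lower, where 2.36% of all genes were higher and 1.07% lower. These 2 rises are therefore no more than the share over all genes. At P1 none of the 84 was called with MI by limma, nor was any in the interaction.

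Some of these counts share reads or neighbours. Ifit2, Ifit3 and Ifit1 lie in one cluster on chromosome 19, Ifnar2 and Ifnar1 79.6 kb apart on chromosome 16, and Parp14, Dtx3l and Parp9 together on the same chromosome, so neighbours are not independent pieces of evidence. Adar shares 1014 bases of exon with Chrnb2 on the opposite strand, and Irf9 shares 123 bases with Rnf31 on the same strand. Whether the counting used strand is not given in the sources used here, so reads there cannot be told apart.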

How the data were processed

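RNA of 16 libraries of sorted cardiac cells (80 nt single reads, per the labels) was sequenced. The submitters' processing notes name mm10 (GRCm38) and the tools Trimmomatic, STAR, HTSeq and edgeR. The deposited values are a normalized signal, which the authors named CPM. Dividing each value by 1 factor per library gave whole reads for 100% of values (tolerance 0.01 read), and these reads were recovered. The design had assumed such values, and edgeR and DESeq2 on the recovered reads were alternatives.

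Libraries with a read on fewer than 10000 genes (3 of 16) were left out. A gene was kept if it reached 1 in 4 or more of the other 13 libraries, and limma-trend (limma 3.58.1, R 4.3.3) was fitted to log2(value + 1) of the 4 groups, with 5 contrasts, two-sided, and Benjamini-Hochberg adjustment over 13033 genes. edgeR 4.0.16 (quasi-likelihood) and DESeq2 1.42.0 were used too. The method was tested on simulated data. Columns are numbered 1, 2, 3 and 5 in each group and the labels 1 to 4, so the columns numbered 5 were placed by group alone. Exon lengths, positions and overlaps are from GENCODE M21, in which 15871 of the 15895 genes had their identifier.

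The genes, the lists, the tests and the filter on libraries were chosen with earlier results of these data known. Genes given with every library's value are, for each comparison, up to 6 called per direction or, where none was, the 3 with the smallest p per direction, and Ifnar1, Ifnar2, Irf7, Irf9, Stat2, Isg15, Ifit1, Ifit3, Usp18 and Bst2. Group means of the rest are given by role. Of the pathway genes, up to 5 called per direction are named, with Ifngr1, Jak1, Tyk2, Irf3 and Cxcl10, and 1 further gene of that rule is not reported here. Alternatives were all 16 libraries, pseudocounts of 0.25 and 4, a minimum of 5, no filter, median-of-ratios and quantile scaling, library weights, only the groups compared, a replicate block and each library left out.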

Additional observations from a re-analysis of the deposited data

Results flagged for a closer look

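In 54 sets of 4 libraries (27 genes in the sham P56 and MI P1 groups), 7 had 1 library far from the other 3. The rule flags about 1 in 20 by chance if sets are independent. These sets share libraries, and no share over all genes is given, so the 7 cannot be compared with that rate. Among all genes, library 2 of sham P56 was the highest of its group for 36.5% and the lowest for 41.8%. Library 2 of sham P56 was far above the rest for Adar (6.49 against 3.71 to 3.98), Ddx58 (42.6 against 22.7 to 23.4), Ddx60 (30.9 against 13.2 to 15.9) and Stat2 (38.2 against 24.0 to 26.1). Sp100 stood at 41.4 in sham P56 library 5 against 15.8 to 18.4, and Irf9 at 16.5 in sham P56 library 1 against 9.55 to 10.7. In MI P1, Irf7 stood at 1.05 in library 1 against 0.548 to 0.582. Without library 2 of sham P56, 27 of 35 genes rose with age in sham, against 20 with it.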

How the results depend on the processing

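The counts of interferon response genes that differed with age kept within 1.5 times their value under each alternative on the 13 libraries, at 16 to 29 in sham (main 20) and 10 to 15 after MI (main 12), and at 14 to 27 and 9 to 14 with 1 library left out. They did not with all 16 libraries, at 9 and 0 with limma and 12 and 1 with edgeR. For MI at P56, 2 genes were called with DESeq2, 2 with a pseudocount of 4, 1 with quantile normalization, 3 with weights per library and 0 to 1 with 1 library left out. For the interaction 1 was called with DESeq2, 1 with weights and 0 to 1 with 1 library left out. Of all genes, the share called for MI at P56 was 5.99% with DESeq2, 3.31% with a pseudocount of 4, 3.96% with quantile normalization and 5.89% with weights. In the interaction it was 2.14% with DESeq2 and 2.43% with weights. Counts of 1 to 3 genes are too few to compare with these shares. With age, the shares under the alternatives on the 13 libraries were 7.85% to 21.2% in sham and 2.99% to 10.5% after MI. The cause of the differences between settings was not tested.

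Over all genes, the count called in sham with age (main 1716) was 518 with all 16 libraries, 1023 with only the groups compared, 2766 with weights and 644 to 2270 with 1 library left out. The count after MI (main 697) was 14, 1215, 1365 and 317 to 1344 under the same settings, and 1103 with DESeq2. For MI at P56 (main 446) it was 23, 199, 768, 143 to 645 and 952. For MI at P1 (main 0) it was 7 with only the groups compared, 8 with weights, 6 with DESeq2, 1 with a minimum of 5, 2 with a pseudocount of 0.25, 2 with quantile normalization and 0 to 2 with 1 library left out. For the interaction (main 63) it was 1 with all 16 libraries, 317 with weights, 340 with DESeq2, 19 with edgeR with or without the filter, 34 with a pseudocount of 4 and 1 to 228 with 1 library left out.

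Signs turned for uncalled genes. With all 16 libraries, by limma and then edgeR, MI at P1 gave 0.71 and 0.18 for Ifnar1 and 0.50 and 0.21 for Parp12. MI at P56 gave -0.89 and -0.068 for Eif2ak2 and -0.62 and -0.17 for Dtx3l. The interaction gave -1.28 and -0.32 for Eif2ak2, -0.81 and -0.43 for Ifnar1, and -0.77 and -0.56 for Ifit2. For MI at P56 Dtx3l was -0.00243 with DESeq2, -0.00839 with quantile normalization and -0.14 with weights, and Ifnar1 in the interaction was -0.022 with weights. With 1 library left out, Ddx58 for MI at P1 ran from -0.36 to 0.015, Dtx3l and Ifnar2 for MI at P56 from -0.28 to 0.31 and from -0.032 to 0.43, and Ifit2 and Ifnar1 in the interaction from -0.038 to 0.56 and from -0.11 to 0.47.

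Deviations from the group means had r of -0.32 to 0.14 over 15 same-numbered pairs of libraries and -0.15 to 0.32 over 47 other pairs. Such deviations cancel within a group, and those of the 2 sham P1 libraries mirror each other, so these values cannot exclude a pairing. With the replicate block the interaction called 8 of all genes tested. With age, 17 of 35 interferon response genes were then called in sham, where 9.32% of all genes were. After MI 10 were called, where 4.23% of all genes were. Depth limits Oas2, Usp18, Rsad2, Irf7, Ifit3, Dhx58, Isg15, Cmpk2 and Bst2, at 2 to 9 reads in their lowest library.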
